A study of Mus musculus with 58 samples.

Results

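The binding sites of BMAL1 were set against those of CLOCK in NIH3T3 cells, a line of mouse embryonic fibroblasts. All 463 BMAL1 peaks and all 1016 CLOCK peaks listed for these cells were used, 1479 of the 3172 peaks in the 4 lists of the series. A BMAL1 peak counted as paired, or as holding CLOCK, when the centre of a CLOCK peak lay within 500 bp of its own centre in mouse genome build mm9. The gene of a pair and its distance from that gene's annotated transcription start are those the authors gave in the BMAL1 list. The gene column of the CLOCK list was not used for this, because it is displaced from the coordinates beside it in much of that list: it named the BMAL1 gene for 33 of the 80 paired CLOCK peaks.

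The cells were synchronised with 100 nM dexamethasone for 30 min, per the labels, and carried no stated genetic change. Chromatin immunoprecipitation with sequencing (ChIP-seq) covered BMAL1 at 7 times (12, 18, 20, 22, 26, 30 and 38 h after dexamethasone) and CLOCK at 6 times (18, 22, 26, 30, 34 and 38 h), with 1 library per time. For each time the nuclei of 2 dishes were united, the chromatin was sheared to about 250 bp and several immunoprecipitations were pooled, per the labels. The name of the BMAL1 list gives 20 h only, so it is unclear which libraries its peaks were called on. The times behind the 2 lists may therefore differ, and a difference between proteins cannot be told apart from one between times or antibodies. Liver lists for the same proteins, with 1254 BMAL1 peaks and with CLOCK from C57/BL6 mice 12 to 14 weeks old, served for comparison only. The liver BMAL1 list was reprocessed from earlier liver libraries that are not samples of this series, per the series' design text. Its name gives a single time of day. The libraries behind the liver lists may therefore differ in mice and times. Neither NIH3T3 list gives a height, a score or a value per library, so there is no spread between replicates: the intervals below are exact (Clopper-Pearson) 95% intervals over peaks, which cover counting error only and take peaks of the same gene as separate. Being lists of places, they hold no expression values against which the cell type could be checked.

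BMAL1 and CLOCK are basic helix-loop-helix PAS proteins that bind DNA together as a heterodimer at E-boxes, of which CACGTG is the canonical form. The heterodimer drives the period and cryptochrome genes, whose products return to inhibit it, and the genes of the REV-ERB nuclear receptors, which repress Bmal1 in a second loop. It also drives the PAR bZIP factors DBP, TEF and HLF, which pass the rhythm on through D-boxes, and it does so in fibroblasts as in other tissues once their clocks are aligned.

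The promoters below were chosen from genes where both proteins lay close to the start, to show what stands in the DNA there. They run from 250 bases before to 50 after a start in RefSeq, build GRCm38.p6, 5′ to 3′ along the gene, with every CACGTG in capitals. Peak positions are in mm9, so only distances from the start were compared, and RefSeq's start can differ from the authors'.
Gm129 (chr3:95882179-95882478, minus strand): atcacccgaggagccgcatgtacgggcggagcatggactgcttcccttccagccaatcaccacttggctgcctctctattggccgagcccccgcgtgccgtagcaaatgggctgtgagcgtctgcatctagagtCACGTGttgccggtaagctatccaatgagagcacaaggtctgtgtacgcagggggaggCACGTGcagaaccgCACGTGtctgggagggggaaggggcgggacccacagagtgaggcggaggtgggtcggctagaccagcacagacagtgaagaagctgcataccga
Cry1 (chr10:85185005-85185304, minus strand): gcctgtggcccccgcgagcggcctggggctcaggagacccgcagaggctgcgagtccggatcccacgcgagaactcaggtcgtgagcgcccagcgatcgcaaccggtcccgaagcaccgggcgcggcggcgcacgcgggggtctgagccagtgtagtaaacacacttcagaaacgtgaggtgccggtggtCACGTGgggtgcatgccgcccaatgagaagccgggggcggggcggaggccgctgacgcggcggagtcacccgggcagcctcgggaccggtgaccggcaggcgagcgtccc
Tef (chr15:81811164-81811463, plus strand): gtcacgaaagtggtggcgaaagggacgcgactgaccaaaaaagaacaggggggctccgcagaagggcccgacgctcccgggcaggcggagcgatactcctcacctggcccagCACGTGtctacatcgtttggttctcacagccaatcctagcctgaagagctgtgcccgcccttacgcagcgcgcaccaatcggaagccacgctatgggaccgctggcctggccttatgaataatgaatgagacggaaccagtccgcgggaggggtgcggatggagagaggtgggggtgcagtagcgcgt
Nptn (chr9:58581990-58582289, plus strand): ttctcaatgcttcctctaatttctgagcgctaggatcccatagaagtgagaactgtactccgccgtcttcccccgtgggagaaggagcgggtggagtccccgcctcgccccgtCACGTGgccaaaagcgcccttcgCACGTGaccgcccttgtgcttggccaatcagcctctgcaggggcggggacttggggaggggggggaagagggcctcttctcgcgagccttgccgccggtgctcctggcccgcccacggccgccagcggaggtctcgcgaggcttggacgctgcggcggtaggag
Top1 (chr2:160645647-160645946, plus strand): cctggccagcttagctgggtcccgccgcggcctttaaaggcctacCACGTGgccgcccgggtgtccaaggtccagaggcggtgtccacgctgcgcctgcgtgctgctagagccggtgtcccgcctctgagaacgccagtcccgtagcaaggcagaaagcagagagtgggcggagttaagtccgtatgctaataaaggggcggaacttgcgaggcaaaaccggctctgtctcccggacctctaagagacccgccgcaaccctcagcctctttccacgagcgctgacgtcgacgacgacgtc
Coq10b (chr1:55052520-55052819, plus strand): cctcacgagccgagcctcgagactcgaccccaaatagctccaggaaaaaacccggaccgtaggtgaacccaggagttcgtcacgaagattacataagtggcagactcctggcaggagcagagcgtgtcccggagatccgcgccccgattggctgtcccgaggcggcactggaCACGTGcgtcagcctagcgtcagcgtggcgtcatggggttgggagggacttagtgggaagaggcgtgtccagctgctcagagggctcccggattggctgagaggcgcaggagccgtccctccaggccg
Dbp (chr7:45704997-45705296, plus strand): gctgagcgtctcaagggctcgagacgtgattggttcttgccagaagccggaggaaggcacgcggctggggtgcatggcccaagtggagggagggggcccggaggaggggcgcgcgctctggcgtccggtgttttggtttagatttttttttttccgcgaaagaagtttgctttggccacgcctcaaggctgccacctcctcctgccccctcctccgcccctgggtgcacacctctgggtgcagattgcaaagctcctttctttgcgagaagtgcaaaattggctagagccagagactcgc

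In Gm129, also named Ciart, which encodes the repressor CHRONO, the 3 E-boxes were centred 113, 55 and 41 bases before the start. The BMAL1 peaks in that window stood at -104 and -30 and the CLOCK peak at -108. In Cry1, which encodes a cryptochrome, the E-box was centred at -57, BMAL1 stood at -71 and 17, and CLOCK at -83. Tef has several RefSeq starts, which of them the authors used is not known, and their distances for its peaks refer to different starts. The RefSeq start shown was chosen after its values were seen and has an E-box centred at -135. BMAL1 stood at -149 and -82 and CLOCK at -133 of the authors' start for those peaks. The other Tef peaks, given from a different start, had BMAL1 at -81 and 3 and CLOCK at 17. In Nptn, which encodes the adhesion molecule neuroplastin, CLOCK stood at -116 between E-boxes centred at -134 and -111. In Top1, the gene of DNA topoisomerase I, BMAL1 stood at -188, CLOCK at -186 and the E-box at -202. In Coq10b, which encodes a coenzyme Q binding protein of mitochondria, BMAL1 stood at -110, CLOCK at -95 and the E-box at -75. The Dbp window held no CACGTG, and BMAL1 at -27 and CLOCK at -22 of a start lay only 5 bp apart. The authors' distances for Dbp refer to different starts, so whether this pair lies in the window shown is not known.

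CACGTG was frequent in promoters with BMAL1 alone as well as in those with both proteins. Of 26 genes with a BMAL1 peak in the window and CLOCK within 500 bp of that peak, 18 held it (69.2%, interval 48.2 to 85.7%). Of 121 with BMAL1 and no CLOCK, 83 did (68.6%, 59.5 to 76.7%), against 2187 of all 27025 genes in the table (8.09%). CACGTT, searched on both strands, stood in 4 of the 26, 8 of the 121 and 5.44% of all genes. Each E-box's distance from its RefSeq start was set against the authors' distance for the BMAL1 peak, over all starts of the gene. By this measure the nearest E-box came within 50 bp for 20 of 39 peaks with CLOCK (51.3%, 34.8 to 67.6%). Without CLOCK it did so for 78 of 139 (56.1%, 47.5 to 64.5%). RefSeq's start can differ from the authors', so such an E-box is not shown to lie at the peak. Genes with CLOCK had a mean of 1.12 RefSeq starts and those without 1.32. A match describes these letters and is not shown to be a bound site.

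CLOCK lay at 102 of the 463 BMAL1 peaks (22.0%, interval 18.3 to 26.1%), and BMAL1 at 80 of the 1016 CLOCK peaks (7.87%, 6.29 to 9.70%). The numbers of paired peaks differ because peaks cluster: 28 of the 80 CLOCK peaks had 2 or more BMAL1 peaks in the window and 17 of these had BMAL1 on both sides, while 19 BMAL1 peaks had 2 CLOCK peaks. Counted as 362 loci, with neighbours under 1 kb apart as 1 locus, BMAL1 met CLOCK at 70 (19.3%). Loci of 1 BMAL1 peak held CLOCK in 48 of 284 cases (16.9%, 12.7 to 21.8%), loci of 2 peaks in 13 of 63 (20.6%, 11.5 to 32.7%) and loci of 3 or more in 9 of 15 (60%, 32.3 to 83.7%). The 9 paired loci of 3 or more peaks were at the clock genes Cry1, Dbp, Gm129, Nr1d1, Per2 and Tef, and at Nup50, Wee1 and 2410080I02Rik. Clock genes here and below are those of 6 lists, which hold PAR bZIP output genes and clock modifiers besides core genes. A locus with more peaks also spans more DNA. The parts of this span and of the clock genes in the rise were not tested. In liver, by the same rule, 54 of 1254 BMAL1 peaks held liver CLOCK (4.31%, 3.25 to 5.58%). The liver lists hold 1693 peaks for both proteins, 1254 of them BMAL1, against 1479 and 463 in NIH3T3 cells. Such shares depend on the lengths of both lists, so the tissues were not compared by them.

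The paired centres lay close together. The median distance from a BMAL1 centre to the nearest CLOCK centre was 40.2 bp (middle 50% of pairs 16.2 to 85.8 bp, range 2 to 479 bp), with both proteins' peaks typically 50 bp wide. In 58 of the 102 pairs the centres were within 50 bp and in 83 within 100 bp, against 11 between 100 and 200 bp and 8 between 200 and 500 bp. Beyond the window, only 3 BMAL1 peaks had their nearest CLOCK centre at 500 to 1000 bp, and for 354 it was over 10 kb away. Just inside it stood Ifrd2 (325 bp), Wee1 (-418.5 bp) and Nr1d2 (-479 bp), and just outside it 2410080I02Rik (-535 and -941 bp) and Nr1d1 (866 bp), where a minus sign puts CLOCK at the lower coordinate.

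Part of the wider spread came from BMAL1 clusters with 1 CLOCK peak among them. In 25 of the 102 pairs the CLOCK peak was nearer to another BMAL1 peak, and the 77 pairs that were each other's nearest had a median of 32 bp and a maximum of 136 bp. Promoter pairs (BMAL1 within 1 kb of a start) had a median of 52.2 bp and reached 479 bp, and distal pairs had a median of 31.5 bp and reached 92 bp. Among mutual nearest pairs the medians were 32.2 bp at 46 promoters and 32 bp at 31 distal sites. CLOCK had no fixed side along the gene: of 40 mutual promoter pairs whose strand was known, it lay downstream of BMAL1 in 23 and upstream in 17. Along the genome's plus strand, over all 102 pairs, it lay at the higher coordinate in 63 and at the lower in 39 (median offset 13 bp). Neither split was tested.

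**Figure D1:**
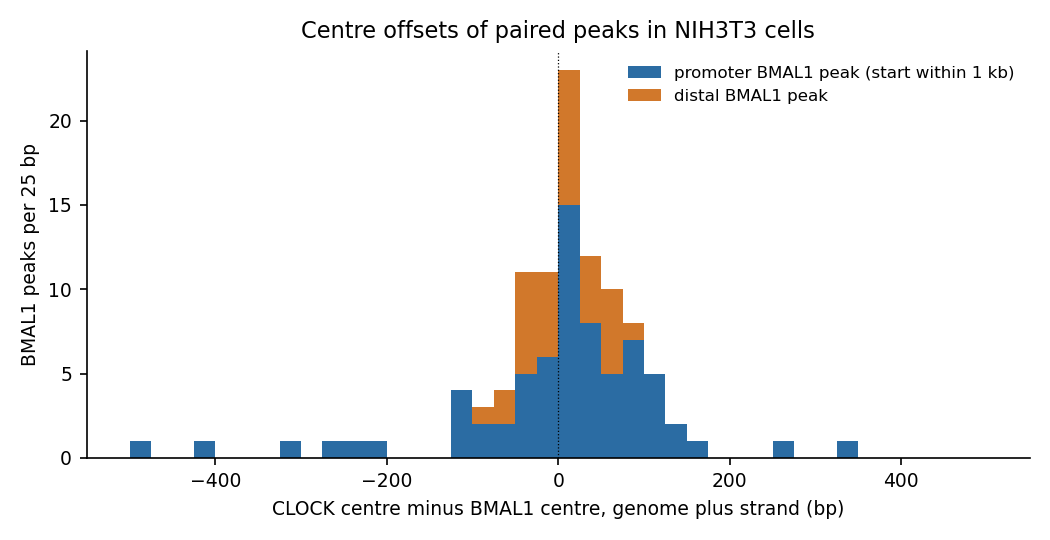
Number of paired BMAL1 peaks (vertical axis) by the CLOCK centre minus the BMAL1 centre in bp along the genome's plus strand (horizontal axis, bins of 25 bp), with promoter and distal BMAL1 peaks stacked. Of 102 pairs, 83 sit within 100 bp, and all pairs beyond 150 bp are at promoters.

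Counted peak by peak, promoter and distal BMAL1 peaks held CLOCK at shares whose difference did not pass the test. CLOCK lay at 70 of 332 promoter peaks (21.1%, 16.8 to 25.9%) and at 32 of 131 distal peaks (24.4%, 17.3 to 32.7%). The odds ratio was 0.827 (0.502 to 1.38, two-sided Fisher's exact test p = 0.456, adjusted over the 5 such tests here 0.456), so both lower and moderately higher odds at promoters remain within the interval. Where the 2 intervals had to overlap, CLOCK was at 34 of 332 promoter peaks (10.2%) and at 24 of 131 distal peaks (18.3%), an odds ratio of 0.509 (0.279 to 0.942). Over joined loci, which do not count clustered peaks as separate, CLOCK lay at 41 of 249 promoter and 29 of 113 distal loci, an odds ratio of 0.572 (0.323 to 1.02, Fisher's exact test p = 0.0450). A locus counted as promoter if any of its peaks did. The interval includes 1 although p is below 0.05, because the exact interval and the exact test are computed differently. This p-value was not adjusted.

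Within promoters the share was lowest at the start itself. It was 19 of 150 BMAL1 peaks within 100 bp of the start (12.7%, 7.80 to 19.1%), 23 of 74 beyond 100 and up to 200 bp (31.1%, 20.8 to 42.9%), 22 of 80 beyond 200 and up to 500 bp (27.5%, 18.1 to 38.6%) and 6 of 28 beyond 500 and up to 1000 bp (21.4%). Peaks at 1 to 10 kb held CLOCK in 16 of 75 cases (21.3%) and those beyond 10 kb in 16 of 56 (28.6%, 17.3 to 42.2%). The clock genes did not follow this: 11 of their 13 BMAL1 peaks within 100 bp of a start held CLOCK, against 8 of 137 for all other genes (5.84%). For those other genes the share beyond 100 bp and up to 1000 bp was 35 of 162 (21.6%). These distance classes were not tested, and the split by clock genes was made after seeing the data. With promoter peaks limited to those more than 100 bp from the start, the odds ratio against distal peaks turned to 1.20 (0.700 to 2.09).

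**Figure D2:**
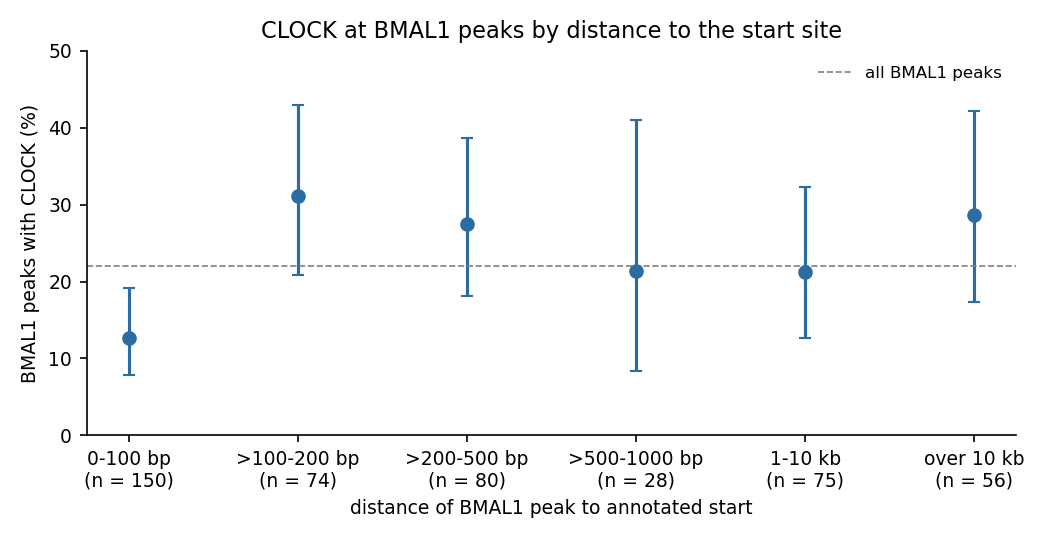
Share of BMAL1 peaks with CLOCK within 500 bp (vertical axis, percent) in 6 classes of distance from the BMAL1 peak to its annotated start (horizontal axis), with exact 95% intervals over peaks; the dashed line is the share over all 463 peaks, 22.0%. The class within 100 bp of the start is the lowest at 12.7%.

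CLOCK was more frequent at promoter BMAL1 peaks that liver shares. The liver BMAL1 list has a peak at 230 of the 332 promoter peaks, and 63 of these held CLOCK in NIH3T3 cells (27.4%, 21.7 to 33.6%), against 7 of the 102 without (6.86%, 2.80 to 13.6%). The odds ratio was 5.10 (2.21 to 13.7, Fisher's exact test p = 8.88e-06, adjusted 4.44e-05). The 7 pairs at promoters without a liver peak belonged to D2Wsu81e (2 peaks), Litaf, Nat10, Nr1d2, Pik3ip1 and Top1. At distal peaks CLOCK lay at 15 of 44 shared with liver (34.1%, 20.5 to 49.9%) and at 17 of 87 others (19.5%, 11.8 to 29.4%), an odds ratio of 2.12 (0.860 to 5.20, Fisher's exact test p = 0.0855, adjusted 0.143), which missed the threshold of 0.05. This call depended on the setting: the odds ratio was 2.95 (1.09 to 7.99, Fisher's exact test p = 0.0280) over joined loci and 3.19 (1.64 to 6.44, p = 3.00e-04) when peaks beyond 200 bp counted as distal. Whether the odds ratios at promoters and distal sites differ was not tested. The first 263 entries of both tissues' BMAL1 lists are the same intervals; CLOCK lay at 73 of them (27.8%) and at 29 of the other 200 NIH3T3 peaks (14.5%). As identical intervals, all 263 count as shared with liver, and they make up most of the 230 promoter and 44 distal peaks in that class. The liver comparison is thus largely one of this common block with the other entries. The liver comparison apart from the block was not tested.

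Among BMAL1 peaks without a liver counterpart, distal ones held CLOCK more often than promoter ones (odds ratio of promoter over distal 0.305, 0.101 to 0.826, Fisher's exact test p = 0.0146, adjusted 0.0365, a test added after seeing the data). Among peaks shared with liver it was 0.730 (0.351 to 1.57, p = 0.367 by Fisher's exact test, adjusted 0.456). Liver CLOCK itself lay at 31 of the 102 paired peaks (30.4%, 21.7 to 40.3%) and at 16 of the 361 unpaired ones (4.43%, 2.55 to 7.10%).

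**Figure D3:**
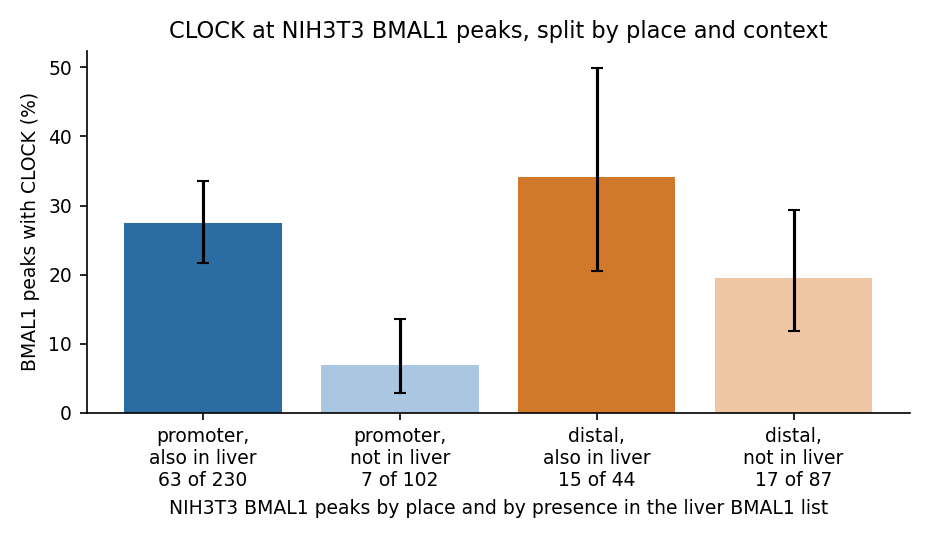
Share of NIH3T3 BMAL1 peaks with CLOCK (vertical axis, percent, bars from 0) at promoter and distal peaks, each split by whether the liver BMAL1 list has a peak there (horizontal axis); error bars are exact 95% intervals over peaks. The bar for promoter peaks absent from liver, 7 of 102, is the lowest.

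Where a CLOCK peak stood in its list went with pairing and with place. The CLOCK list is not sorted by coordinate and what its order means is not stated. BMAL1 lay at all of the first 10 entries, 53 of the first 100 (53%, 42.8 to 63.1%), 14 of the next 100 and 13 of the 816 after that (1.59%). The nearest BMAL1 peak was distal for 29 paired CLOCK peaks in the first 100 and for 4 of the 27 after. It was that of a clock gene for 21 and 0. The comparison by place turned around with the order. Against the first 100 CLOCK entries alone the odds ratio of promoter over distal was 0.448 (0.252 to 0.803), with CLOCK at 36 of 332 promoter and 28 of 131 distal peaks. Against the other 916 it was 3.73 (1.30 to 14.8), with CLOCK at 35 and 4. The split at 100 was made after seeing the data.

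**Figure D4:**
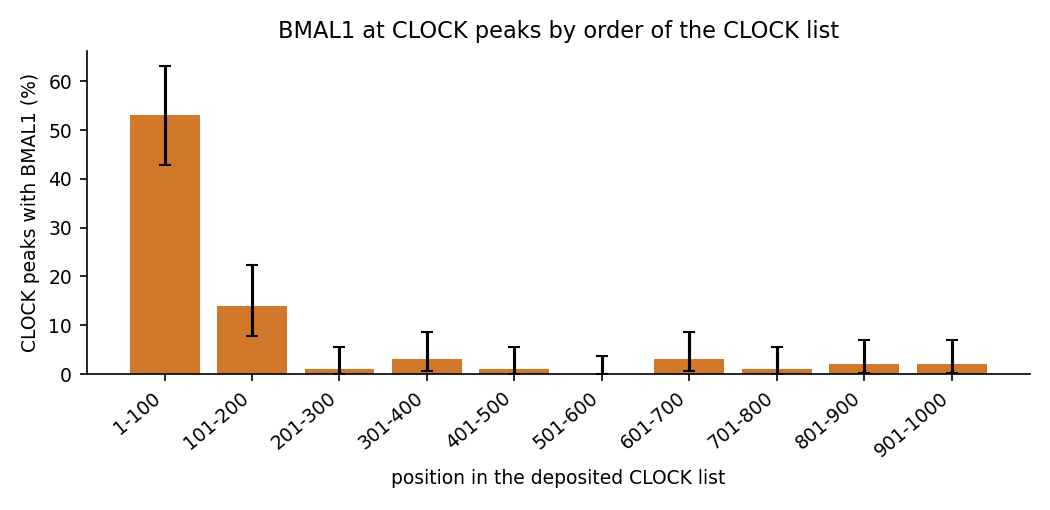
Share of CLOCK peaks with a BMAL1 centre within 500 bp (vertical axis, percent) in successive sets of 100 entries of the CLOCK list (horizontal axis, the last 16 entries not drawn), with exact 95% intervals over peaks. The first set reaches 53%, the second 14%, and the sets after it stay near 0.

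Of 345 genes with a BMAL1 peak, 65 had CLOCK at 1 or more of their BMAL1 peaks (18.8%). In 58 of them every BMAL1 peak was paired, which holds by definition where a gene has a single BMAL1 peak. Of the 65 genes, 44 had 1 paired peak and 21 had 2 or more. Pairs lay within 1 kb of a start for 39 genes and only farther away for 26. Peaks of the 6 lists of clock genes, PAR bZIP outputs among them, were paired in 32 of 43 cases (74.4%, 58.8 to 86.5%). All other peaks were paired in 70 of 420 (16.7%, 13.2 to 20.6%), beside 22.0% over all BMAL1 peaks. Clock genes supplied 11 of the 65 and the other 54 came from outside these lists.

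In the inhibitory arm of the clock, 4 of 5 genes had both proteins, with 10 of 14 BMAL1 peaks paired. Per1, a period gene, had 3 BMAL1 peaks on chromosome 11, each with a CLOCK peak of its own. At 68908358 to 68908407 the CLOCK centre lay 2 bp away, at 68908641 to 68908699 it lay -54.5 bp away, and at 68912250 to 68912308 it lay 14.5 bp away. The CLOCK peaks at the first pair of these places were entries 2 and 1 of the CLOCK list. Per2 had 3 BMAL1 peaks on chromosome 1 at 11, -226 and -367 bp from the start, around a single CLOCK peak (93355986 to 93356035) at offsets of 116, -123 and -264 bp. Per2 had the widest closest offset, 116 bp, of the 11 clock genes with both proteins. In Cry1 (chromosome 10, 84647758 to 84648170) the 3 BMAL1 peaks had 2 CLOCK peaks, at offsets of 100, 12 and -38 bp. In Cry2 only the promoter peak, at -192 bp, was paired, with an offset of 4 bp; both of its overlapping distal intervals 8513 bp downstream had no CLOCK nearer than 10360 bp, although liver CLOCK lay there. Per3 had BMAL1 at 4 and -303 bp from the start and no CLOCK on its chromosome within 2884044 bp.

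Both REV-ERB genes had both proteins, with 8 of 9 BMAL1 peaks paired. Nr1d1, which encodes REV-ERBα, had 7 BMAL1 peaks and 6 were paired, with 5 CLOCK peaks. Offsets were 5.50 and -32 bp at peaks 1392 and 1025 bp downstream of the start, 253, -35 and 57 bp around the start, and -6 bp at -8107 bp, far upstream. Between these, on chromosome 11 from 98640152 to 98643913, stood 7 more CLOCK peaks with no BMAL1 centre in the window, the closest at -865 bp and the farthest at 3744 bp from its nearest BMAL1 centre. They are all the CLOCK peaks of NIH3T3 cells lying 500 bp to 5 kb from a BMAL1 centre, all 7 had a liver CLOCK peak, and they ranked 15 to 32 in the CLOCK list. Nr1d2, the gene of REV-ERBβ, had BMAL1 at 474 and 18 bp, both paired with the same CLOCK peak, 66 and -479 bp away.

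**Figure D5:**
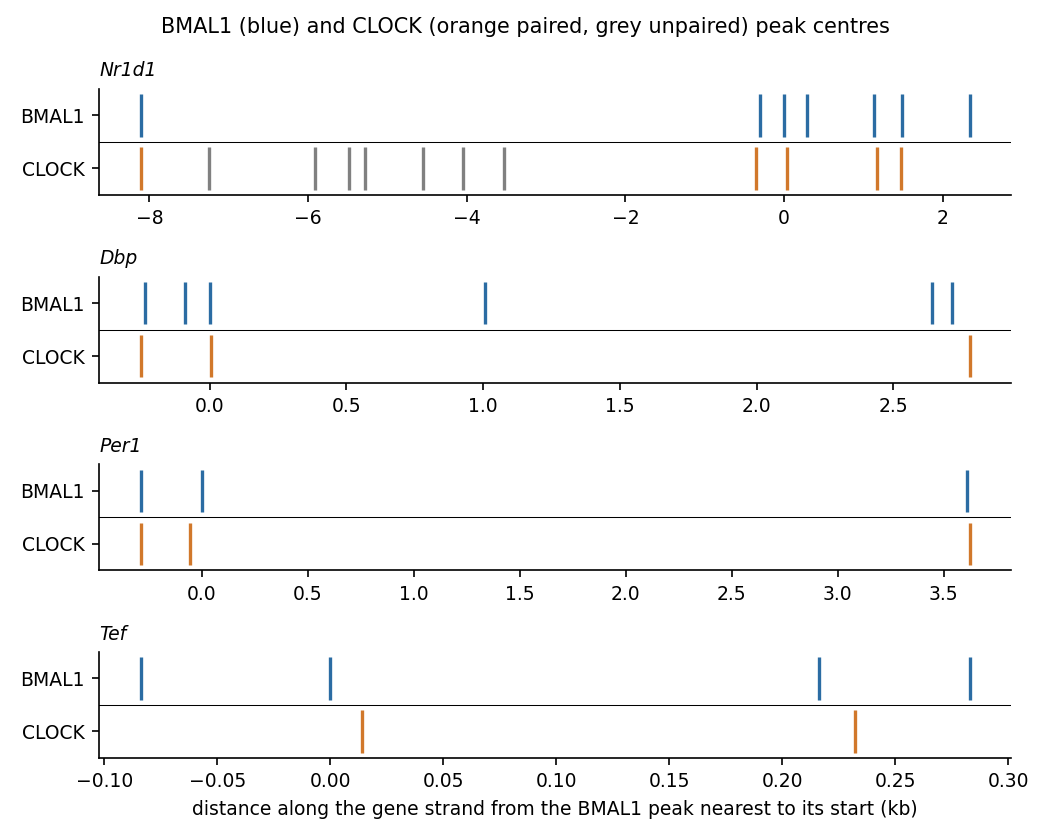
Positions of BMAL1 peak centres and of CLOCK peak centres (paired or unpaired with BMAL1) at Nr1d1, Dbp, Per1 and Tef, in kb along the gene's strand from the BMAL1 peak nearest to its annotated start; the scale differs between genes. At Nr1d1 the 7 unpaired CLOCK peaks lie between the upstream pair and the promoter, and at the other genes every CLOCK peak drawn is paired.

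Among the repressors of the DEC and CHRONO group, Gm129 had 3 BMAL1 peaks around 1 CLOCK peak on chromosome 3 (95686258 to 95686307), at offsets of 4, 78 and -322 bp. Bhlhe41, the gene of DEC2, was paired at a peak 9464 bp downstream of its start, with an offset of 2.50 bp, but not at its upstream peaks at -832 and -1164 bp, where CLOCK was no nearer than 10549 bp. Bhlhe40, the gene of DEC1, had BMAL1 at -242 and -1129 bp and no CLOCK. Neither the activator genes (Arntl, Arntl2, Clock, Npas2) nor any of the 13 genes of kinases, ligases and other clock modifiers had a BMAL1 peak in this list.

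All 3 PAR bZIP genes had both proteins, with 10 of 12 BMAL1 peaks paired. Dbp had 6 BMAL1 peaks on chromosome 7 and 5 were paired, with 3 CLOCK peaks. At the first start the offsets were -15, 96.5 and 5 bp, and at the start annotated farther downstream 140 and 66 bp. The unpaired peak of Dbp, only 5 bp wide at 52961435 to 52961439, lay between these groups, with CLOCK at -1000.5 bp. Tef had 4 BMAL1 peaks on chromosome 15 (81641371 to 81641787) and 2 CLOCK peaks, at offsets of 98, 14, 16 and -51 bp, and these CLOCK peaks were entries 3 and 4 of their list. Hlf was paired far upstream, at -27255 bp from its start (90279441 to 90279533 on chromosome 11), with an offset of -2.50 bp, while its peak 31 bp from the start had no CLOCK. Nfil3, whose product opposes these factors at D-boxes, had no BMAL1 peak.

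Among listed genes of growth, signalling and metabolism, 11 of 36 BMAL1 peaks were paired (30.6%), beside 22.0% over all BMAL1 peaks. With the listed stress genes it was 11 of 39 (28.2%). The lists were chosen with earlier results of these data known, and the difference was not tested. Of 6 cell cycle genes with BMAL1, Wee1, which encodes a kinase that restrains mitotic entry, was paired at 3 peaks with 1 CLOCK peak, at 155, -42.5 and -418.5 bp. The cyclin genes Ccne1 and Ccne2, the kinase gene Cdk4 (2 peaks each), the DNA damage gene Gadd45g and the apoptosis gene Bax were not paired. Of 12 signalling and transcription factor genes, 4 were paired. Hif1a, the gene of the hypoxia factor HIF-1α, was paired at -171 bp (offset 91 bp), and the forkhead gene Foxo3 at -1425 bp (39.5 bp). Tcf7l2, the gene of a Wnt pathway factor, was paired 131057 bp from its start (48 bp). Tsc22d3, which encodes the glucocorticoid-induced protein GILZ, was paired at 31415 and 22275 bp downstream of its start, by separate CLOCK peaks at -51.5 and -18.5 bp. Fkbp5, another gene that glucocorticoids induce, had BMAL1 at -160 bp and no CLOCK. Hes1, Junb, Klf9, Klf11, Nr6a1, Rarg and Tgfb2 were not paired either; the nearest CLOCK centre to Klf9 lay at -5221 bp, beside 2410080I02Rik.

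Of 9 metabolic genes with BMAL1, 2 were paired, with 3 of 10 peaks. Pcx, the gene of pyruvate carboxylase, had peaks at -356 and -262 bp around 1 CLOCK peak (-7 and -101 bp), and Mthfd1l, which encodes a mitochondrial enzyme of folate metabolism, had 1 peak at 606 bp (13 bp). Angptl4, Dgat2, Elovl1, Gclc, Irs2, Lpin2 and Pfkfb3 had BMAL1 without CLOCK, as did the stress genes Cirbp, Hspe1 and Trib1. Over the 4 lists outside the clock, 7 of 30 genes with BMAL1 also had CLOCK (23.3%), near the 18.8% over all genes with BMAL1.

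Outside every list, several genes had more than 1 paired BMAL1 peak, at their promoters except for Ppl. Nup50, the gene of a nuclear pore protein, had 3 at -419, -309 and -191 bp, with 1 CLOCK peak at offsets of 5, -105 and -223 bp. Hdgf, the gene of a heparin-binding growth factor, had 2 at -291 and -209 bp (103 and 21 bp). Tomm20, which encodes a receptor for import into mitochondria, had 2 at -154 and -219 bp (102 and 37 bp). Coq10b (96 and 15 bp) and Nptn (87 and 32 bp) had CLOCK downstream of both peaks. At Avpi1 (38 and -17 bp), D2Wsu81e (34 and -20 bp) and Ppl (24 and -28 bp), the CLOCK centre lay between the 2 BMAL1 centres, and Ppl, the gene of the junction protein periplakin, carried them at -2338 and -2390 bp. Ifrd2 (325 and 49.5 bp) and Gm17682 (-32.5 and -242 bp) complete the group. Of the 13 genes outside the clock lists with 2 or more paired BMAL1 peaks, 12 had a single CLOCK peak for all of them.

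Several of the closest pairs were at genes outside the clock. Top1 had an offset of 2 bp at 160471412 to 160471461 on chromosome 2, as close as the closest pair of Per1. Atxn3, the gene of the deubiquitinase ataxin-3, had -2.50 bp at 103196531 to 103196615 on chromosome 12. Rhebl1, which encodes a small GTPase, had -3.50 bp at 98711958 to 98712028 on chromosome 15, and Gm5218 had 3.50 bp at a peak at -23783 bp on the same chromosome. Per1, Bhlhe41, Hlf, Gm129, Cry2 and Dbp, given above, made up the rest of the 10 closest.

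The other promoter pairs were single BMAL1 peaks. They were at Adh5 (29.5 bp), Atf7 (-79 bp), Gm12319 (136 bp), Khdrbs1 (15.5 bp), Litaf (122 bp), Nat10 (78 bp), Pdxk (53.5 bp), Pik3ip1 (19 bp), Rsad1 (39 bp), Taf8 (40.5 bp), Trip6 (67.5 bp), 1700113A16Rik (-44 bp), 2410080I02Rik (-82 bp, with 2 more BMAL1 peaks unpaired) and 2410131K14Rik (-113 bp). They include genes of transcription (Taf8, a subunit of TFIID, and Atf7, a bZIP factor), of RNA binding or modification (Khdrbs1, Nat10) and of enzymes (Adh5, Pdxk). No common function was tested.

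The farthest pairs from any start were as tight as those at promoters. They were at Tcf7l2 (131057 bp, above), Lsm3 (83131 bp, offset -19.5 bp, chromosome 6, 91549143 to 91549203), a chromosome 17 peak with no gene assigned (-78324 bp, offset 39 bp, 87930996 to 87931045), Ppp2r2a (-48201 bp, offset -92 bp, chromosome 14, 67739449 to 67739498) and Btbd16 (45825 bp, offset 67 bp, chromosome 7, 137963384 to 137963433). The CLOCK peak near Lsm3 was entry 7 of its list, ahead of all but 1 of the CLOCK peaks of Nr1d1. A gene name at such a distance is the authors' nearest annotation, and no link to that gene was measured. Other distal pairs lay 10 to 50 kb from a start at Cubn, Galnt2, H2afy2, A330017A19Rik, A630055G03Rik, Arl4d and 1700011F14Rik. Those nearer than 10 kb were at Atf6b, Ccl1, Fam25c, Mir23a, C530028O21Rik, 2310035K24Rik, G3bp1, Tenc1 and Gm15684. Of the 65 genes, 19 had no NIH3T3 BMAL1 peak with a liver BMAL1 centre within 500 bp. Liver peaks elsewhere at these genes were not looked for.

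Clusters of BMAL1 peaks also stood without CLOCK. In all, 56 genes had 2 or more BMAL1 peaks and no CLOCK at any, the most being Srm, the gene of spermidine synthase, with 6 (named after its values were seen). The phosphate transporter gene Slc20a1 had 4 BMAL1 peaks, each with a liver BMAL1 and a liver CLOCK peak, and its nearest CLOCK centre in NIH3T3 cells lay 245035 bp away. Conversely, liver CLOCK was present at a BMAL1 peak of 10 of the 11 clock genes with both proteins, all but Bhlhe41. It was also present at 2 of the other 54, Mthfd1l and 2410080I02Rik.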

How the data were processed

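The deposited peak lists give the chromosome, start and end of each peak, its gene and the distance to that gene's start, in mm9, as the authors made them. They hold no counts or other scores. Bowtie, SAMtools and bedtools are named in the submitters' processing notes, with no role. For the peak caller, its threshold and any pooling of libraries, nothing is stated by labels or headers. Centres were paired within 500 bp, BMAL1 peaks within 1 kb of a start were called promoter peaks, and an alternative took neighbours under 1 kb apart as 1 locus. Shares have exact 95% intervals and odds ratios come from two-sided Fisher's exact tests (SciPy 1.17.1, Python 3.11.15), whose p-values were adjusted by the Benjamini-Hochberg method over 5 tests. The signed distance was checked against RefSeq's strand. It rose along the strand in 44 of 44 comparisons of neighbouring peaks of the same gene and start, so negative values are upstream. The pairing was tested on simulated lists. RefSeq names matched 61 of the 65 genes with both proteins. RefSeq promoters (GRCm38.p6) were searched for CACGTG. Named were the listed genes with a BMAL1 peak, every gene with both proteins, and in full the 10 closest and 5 farthest pairs and genes with 2 or more paired peaks. The members and lists were chosen with earlier results of these data known. RNA, input, RNA polymerase II and the reads of each library were not used here. Some listed genes are not reported here.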

Additional observations from a re-analysis of the deposited data

How the results depend on the processing

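Other settings moved the shares and the comparison by place more than the offsets. CLOCK lay at 17.9% of BMAL1 peaks with a 100 bp window, 12.5% when intervals had to overlap and 16.7% without clock genes. It lay at 13.8% with the first 100 CLOCK entries and at 8.42% without them. BMAL1 lay at 5.41% of CLOCK peaks by overlap, at 53% of the first 100 entries and at 2.95% of the others. The odds ratio of promoter over distal was 0.509 by overlap (Fisher's exact test p = 0.0281), 0.572 with joined loci (p = 0.0450), 0.305 for peaks absent from liver (p = 0.0146) and 0.448 with the first 100 CLOCK entries (p = 0.00437). By the same exact test it turned to 1.20 with only promoter peaks beyond 100 bp (p = 0.518) and to 3.73 without the first 100 CLOCK entries (p = 0.00849). The settings by list order, liver and the 100 bp limit were added after seeing the data, and the cause of these shifts was not tested. The p-values in this section are unadjusted. The liver odds ratio at promoters stayed past the threshold in all 6 alternatives (2.77 to 5.13). At distal peaks it was 3.19 (exact p = 3.00e-04) when distal began at 200 bp, and 2.95 (p = 0.0280) with joined loci. The median offset was 32 bp in mutual nearest pairs. The number of genes with both proteins was 48 to 65 in the 5 alternatives run. No paired analysis was possible because the peak lists carry no values per library. No depth per library is given, so no limit of detection could be set.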
